A study of Mus musculus with 4 samples.

Results

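The Snrpn-Ube3a imprinted cluster on mouse chromosome 7 was followed through 7 genes, Atp10a, Ube3a, Snrpn, Ndn, Magel2, Mkrn3 and Peg12, chosen by symbol from the 26130 genes listed in the deposited tables. RNA of mouse embryonic stem cells had been sequenced in 4 libraries: Zfp57-/- and wild-type cells of the line E14, of strain 129P2/OlaHsd, and Zfp57-/- and wild-type cells of the line JB1, whose strain is given as JF1/B6, each as a single library. All cells were kept feeder-free on gelatin-coated plates, with serum and leukemia inhibitory factor. The sources used here do not say how the Zfp57 alleles were made or how many clones were used. The question was how mRNA levels differed in cells lacking ZFP57. This zinc finger protein of the KRAB family recognises the methylated copy of imprinting control regions and helps keep it methylated.

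The cluster corresponds to the human Prader-Willi and Angelman region. Its control region overlaps the main Snrpn promoter and is methylated on the maternal copy, and the unmethylated paternal copy allows expression of Snrpn, Ndn, Magel2, Mkrn3 and Peg12. Ube3a is expressed from the maternal copy in neurons, where a long antisense transcript from the Snrpn side runs over the paternal gene, and from both copies in most other cells. Atp10a has been described as maternally expressed in some mouse tissues and strains.

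In the deposited coordinates (mm9), the listed start of Snrpn, on the minus strand, is the reference point for distance. Snrpn spans chr7:67127388-67285105, and Ube3a (chr7:66484122-66562097, plus strand) starts 0.801 Mb away. Atp10a (chr7:65913572-66084796, plus strand) starts 1.372 Mb away on the same side. On the other side are Ndn (chr7:69493163-69494814, plus strand) at 2.208 Mb, Magel2 (chr7:69521865-69526526, plus strand) at 2.237 Mb, Mkrn3 (chr7:69562479-69565039, minus strand) at 2.280 Mb and Peg12 (chr7:69606757-69609396, minus strand) at 2.324 Mb. The listed span of Snrpn is 157718 bases and holds the proximal promoter and the control region, whose mm9 position was not determined, so these distances are from the listed start and not from the control region. Snrpn and Ube3a were counted as near (within 1 Mb) and the other 5 genes as far, and a shift by at most the length of the span leaves these classes as they are.

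The start regions of the genes show which of them carry the hexamer TGCCGC, the core of the sequence that ZFP57 binds when its CpG is methylated. The sequences are RefSeq promoters of GRCm38.p6, from 250 bases before to 50 bases after each start, and all 7 symbols matched, with 10 starts in all, 4 of them for Snrpn. Read on both strands, TGCCGC occurred at 1 of the 10, the proximal start of Snrpn, which RefSeq also gives to Snurf, and in 11.6% of all 32851 promoters. The other 3 Snrpn starts lie 42779, 135026 and 444978 bases upstream of the proximal one, and their windows hold 2 to 4 CpG, against 7 in the proximal window. The median was 7 over all 32851 promoters and 10.5 over the 10 windows of the cluster genes. A second motif, GCATGCG, part of the NRF1 consensus, was searched after the sequences had been seen. It occurred on both strands, in overlapping copies, at all 4 Snrpn starts and at Ndn, and at none of the other 5 starts, against 3.58% of all promoters. A match is a description of letters and not a bound site. The proximal Snrpn window (chr7:60005150-60005449, minus strand), an upstream Snrpn window (chr7:60140176-60140475, minus strand) and the Ndn window (chr7:62348027-62348326, plus strand) are shown 5′ to 3′ to set these motifs side by side. Capitals mark GCGGCA, which is TGCCGC read on the opposite strand, and CGCATGCG, which holds GCATGCG on both strands.
Snrpn proximal: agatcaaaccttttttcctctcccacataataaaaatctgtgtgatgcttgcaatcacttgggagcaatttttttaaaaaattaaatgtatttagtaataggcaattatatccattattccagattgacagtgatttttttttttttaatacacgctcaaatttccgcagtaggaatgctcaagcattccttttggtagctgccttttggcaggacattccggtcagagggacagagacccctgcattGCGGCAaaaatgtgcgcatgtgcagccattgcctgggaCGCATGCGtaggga
Snrpn upstream: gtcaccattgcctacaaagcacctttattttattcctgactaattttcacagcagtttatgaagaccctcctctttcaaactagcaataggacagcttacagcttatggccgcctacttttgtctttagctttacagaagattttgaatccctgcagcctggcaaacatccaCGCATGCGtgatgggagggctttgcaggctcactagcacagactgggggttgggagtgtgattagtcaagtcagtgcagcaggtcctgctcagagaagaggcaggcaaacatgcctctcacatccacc
Ndn: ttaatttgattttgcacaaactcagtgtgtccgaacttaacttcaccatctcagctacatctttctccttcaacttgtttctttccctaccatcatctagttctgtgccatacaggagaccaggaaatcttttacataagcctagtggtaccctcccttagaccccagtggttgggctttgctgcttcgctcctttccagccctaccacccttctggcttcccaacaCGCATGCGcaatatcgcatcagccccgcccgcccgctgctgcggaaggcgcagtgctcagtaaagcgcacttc
The hexamer begins 2 bases before the proximal start. The upstream Snrpn windows resemble each other, with 85.0% to 88.7% of aligned bases identical, and share 55.4% to 58.4% with the proximal one.

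Levels are in RPM, which are reads of a gene for each 1000000 of the total used for scaling, not corrected for gene length, and whole reads could be recovered from them. The listed genes held 26801865 to 66849394 reads per library. Zfp57 itself was 51.8 RPM in Zfp57-/- and 135 RPM in wild-type E14, and 42.9 RPM in Zfp57-/- and 796 RPM in wild-type JB1. All 8 stem cell markers had reads, with summed levels of 3125 RPM in Zfp57-/- and 3440 RPM in wild-type E14, and of 3998 RPM in Zfp57-/- and 4960 RPM in wild-type JB1. In E14, 1 of the 8 was higher in the Zfp57-/- library, and in JB1 2 were, beside 53.5% and 51.5% of all measured genes. Nanog was 137 RPM in Zfp57-/- and 228 RPM in wild-type E14, and 362 RPM in Zfp57-/- and 693 RPM in wild-type JB1. Klf4 was the marker beyond 2-fold in JB1, at 164 RPM in Zfp57-/- and 410 RPM in wild-type cells. Of 6 fibroblast or feeder markers Dcn had 0 reads in all 4 libraries, and the 6 summed to 3.03 RPM in Zfp57-/- and 2.48 RPM in wild-type E14, and to 19.2 RPM in Zfp57-/- and 9.05 RPM in wild-type JB1. The 3 of them measured in JB1 were all higher. Pdgfrb was 5.73 RPM in Zfp57-/- and 1.43 RPM in wild-type JB1, Thy1 was 7.95 RPM in Zfp57-/- and 3.61 RPM in wild-type JB1, and Col1a1 was 5.19 RPM in Zfp57-/- and 3.67 RPM in wild-type JB1. The 5 primitive endoderm markers summed to 4.92 RPM in Zfp57-/- and 6.74 RPM in wild-type E14, and to 16.0 RPM in Zfp57-/- and 15.7 RPM in wild-type JB1. Within the JB1 sum, Gata4 was lower, at 2.97 RPM in Zfp57-/- and 6.10 RPM in wild-type cells, and the other 4 were higher, among them Pdgfra at 3.22 RPM in Zfp57-/- and 1.49 RPM in wild-type cells and Gata6 at 2.31 RPM in Zfp57-/- and 1.26 RPM in wild-type cells. In E14, Gata4 was 1.15 RPM in Zfp57-/- and 2.20 RPM in wild-type cells. Of 8 neural markers 6 were found, and they summed to 51.4 RPM in Zfp57-/- and 39.9 RPM in wild-type E14, and to 27.6 RPM in Zfp57-/- and 24.8 RPM in wild-type JB1. Most of each sum was Tubb3, at 45.9 RPM in Zfp57-/- and 33.1 RPM in wild-type E14, and 20.3 RPM in Zfp57-/- and 17.3 RPM in wild-type JB1. Of the 3 neural markers measured in E14, 2 were higher and 1 lower, and of the 4 measured in JB1, 3 were higher and 1 lower. Pax6 was the lower one in E14, at 1.99 RPM in Zfp57-/- and 3.37 RPM in wild-type cells. Neurod1 was the lower one in JB1, at 2.52 RPM in Zfp57-/- and 3.83 RPM in wild-type cells. Among the higher ones in JB1, Syp was 2.04 RPM in Zfp57-/- and 1.07 RPM in wild-type cells. The part of these differences in the results that follow was not tested. In such bulk samples fewer cells of a type and less RNA per cell cannot be told apart. With a single library per line and genotype, the intervals hold the error of counting alone, and differences within a line carry no p-value.

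Snrpn, which encodes the spliceosomal protein SmN, was higher in the Zfp57-/- library of both lines. It was 127 RPM in Zfp57-/- E14 (8956 reads), against 70.2 RPM in wild-type E14 (3545 reads). In JB1 it was 255 RPM in Zfp57-/- cells (24775 reads), against 119 RPM in wild-type cells (8239 reads). Both Zfp57-/- libraries thus stood above both wild-type libraries, although the lines come from separately scaled tables. The ratio was 1.804 in E14 (95% interval 1.735 to 1.876) and 2.15 in JB1 (2.093 to 2.200). On the log2(RPM + 1) scale, used for all differences below, Snrpn differed by 0.84 in E14 and 1.09 in JB1. It ranked 200 of 12276 measured genes in E14 and 244 of 13132 in JB1, counting from the highest difference, where measured means at least 1 RPM in either library of the line. Among the 11890 genes measured in both lines, 11 were at least as high as Snrpn in both, Snrpn included.

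Tested over both lines with limma (cell line and genotype as terms), Snrpn had an estimate of 0.97 ± 0.16 (SE), higher in 2 of 2 lines. Its unadjusted limma p was 0.000728, rank 5 of 12644 genes, and its Benjamini-Hochberg adjusted p was 0.623. No gene of the 12644 passed an adjusted p of 0.05 in limma (0% called in either direction), while 1005 (7.95%) had an unadjusted p under 0.05. With voom weights on the recovered reads these counts were 0 and 1250. The design has 1 residual degree of freedom per gene, the disagreement of the lines.

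**Figure D1:**
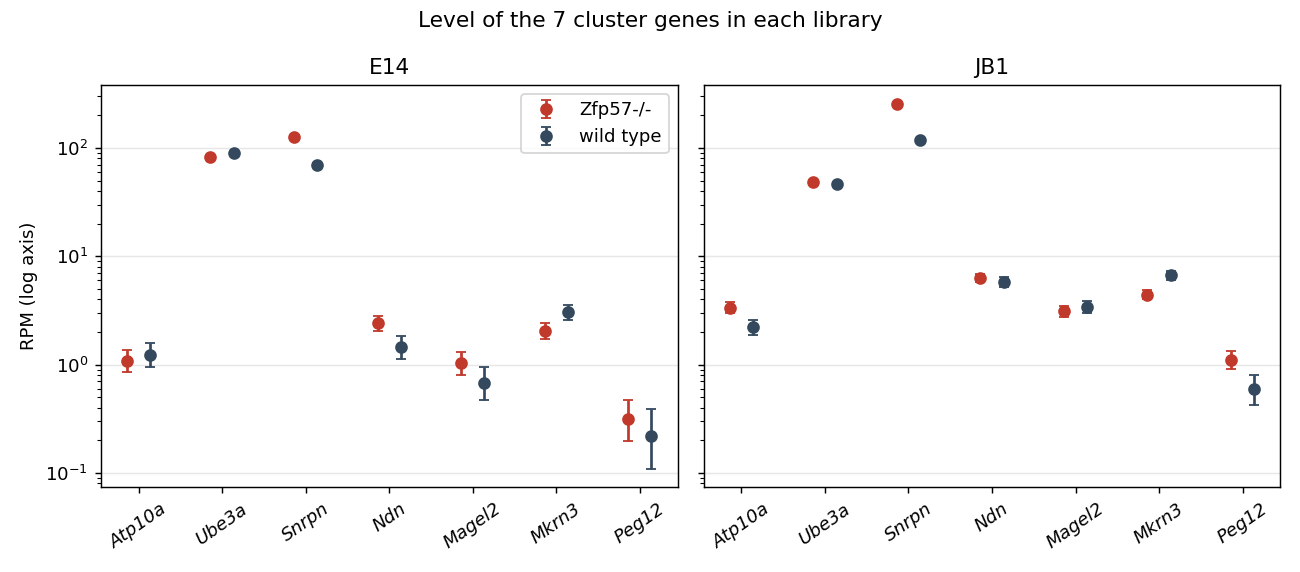
Level of each gene in RPM (vertical log axis) in Zfp57-/- (red, left) and wild-type (dark blue, right) libraries of E14 and JB1. Points are single libraries, and bars are 95% Poisson counting intervals. Snrpn stands at 127 and 255 RPM in the Zfp57-/- libraries, above 70.2 and 119 RPM in the wild-type libraries of E14 and JB1.

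Ndn, an intronless gene for the MAGE-family protein necdin, which restrains growth in neurons, was at low levels. It was 2.40 RPM in Zfp57-/- E14 (170 reads), against 1.45 RPM in wild-type E14 (73 reads), a ratio of 1.66 (95% interval 1.257 to 2.219). Its JB1 level was 6.31 RPM in Zfp57-/- cells and 5.79 RPM in wild-type cells, a ratio of 1.09 (0.9585 to 1.238). The interval held 1 in JB1 and lay above 1 in E14. Ndn carries the GCATGCG motif of the Snrpn starts and no TGCCGC in its window.

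Magel2, whose MAGE protein takes part in endosomal ubiquitination and which is deleted or mutated in related human syndromes, was 1.03 RPM in Zfp57-/- E14 (73 reads) and 0.674 RPM in wild-type E14 (34 reads). The E14 ratio was 1.53 (95% interval 1.007 to 2.376), and the gene passed the 1 RPM filter in E14 through the Zfp57-/- library alone. The JB1 libraries gave 3.09 RPM in Zfp57-/- cells and 3.40 RPM in wild-type cells, a ratio of 0.91 (0.7653 to 1.085). The JB1 interval held 1, and nothing is read from the E14 ratio, since the gene passed the filter there through the library in which it was higher.

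Mkrn3, which encodes a zinc finger ubiquitin ligase and whose human counterpart restrains the onset of puberty, was lower in the Zfp57-/- library of both lines. It was 2.04 RPM in Zfp57-/- E14 (144 reads), against 3.05 RPM in wild-type E14 (154 reads), a ratio of 0.668 (95% interval 0.5283 to 0.8435). The JB1 level was 4.41 RPM in Zfp57-/- cells (428 reads), against 6.69 RPM in wild-type cells (463 reads), a ratio of 0.660 (0.577 to 0.7538). The log2 differences were −0.42 in E14 and −0.51 in JB1, and 98 of the 11890 genes measured in both lines were at least as low in both, Mkrn3 included. The limma estimate was −0.46 ± 0.20 (SE, unadjusted p = 0.0635, adjusted p = 0.631), lower in 2 of 2 lines.

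Peg12, the intronless Frat3 gene, related to the Wnt pathway regulators that bind GSK3, was the gene with the fewest reads. It was 0.311 RPM in Zfp57-/- E14 (22 reads) and 0.218 RPM in wild-type E14 (11 reads), a ratio of 1.43 (95% interval 0.6637 to 3.262), so a difference was not detectable at this depth. JB1 held 1.10 RPM in Zfp57-/- cells (107 reads) and 0.592 RPM in wild-type cells (41 reads), a ratio of 1.86 (1.288 to 2.738). It was below the 1 RPM filter in both E14 libraries and passed it in JB1 through the Zfp57-/- library alone.

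The 4 distal genes with an active paternal copy did not share the direction of Snrpn as a block. In E14, 3 were higher in the Zfp57-/- library and 1, Mkrn3, was lower, and in JB1 2 were higher and 2 lower. Of all measured genes, 53.5% were higher in E14 and 51.5% in JB1. The counts of the 4 were taken without the 1 RPM filter. Peg12 was below it in E14, and Magel2 in E14 and Peg12 in JB1 passed it through the Zfp57-/- library alone. Ndn, Magel2, Mkrn3 and Peg12 together summed to 5.79 RPM in Zfp57-/- E14 and 5.39 RPM in wild-type E14. In JB1 they summed to 14.9 RPM in Zfp57-/- cells and 16.5 RPM in wild-type cells. Snrpn made up 95.6% of the RPM of these 5 paternally expressed genes in Zfp57-/- E14, against 92.9% in wild-type E14, and 94.5% in Zfp57-/- JB1, against 87.9% in wild-type JB1. These sums and shares are not corrected for gene length.

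Ube3a, which encodes the ubiquitin ligase E6AP that is lost in Angelman syndrome, was 82.0 RPM in Zfp57-/- E14 (5799 reads) and 89.9 RPM in wild-type E14 (4536 reads). Its E14 ratio was 0.913 (95% interval 0.878 to 0.9493). JB1 libraries held 48.8 RPM in Zfp57-/- cells (4731 reads) and 46.3 RPM in wild-type cells (3206 reads), a ratio of 1.05 (1.006 to 1.101). The limma estimate was −0.03 ± 0.15 (SE, adjusted p = 0.971), with opposite directions in the lines. The sources used here do not say whether counting used strand, so reads of Ube3a and of an antisense transcript cannot be told apart.

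Atp10a, which encodes a phospholipid-flipping ATPase, was 1.09 RPM in Zfp57-/- E14 (77 reads) and 1.23 RPM in wild-type E14 (62 reads), a ratio of 0.887 (95% interval 0.6265 to 1.260). For JB1 the level was 3.36 RPM in Zfp57-/- cells (326 reads) and 2.21 RPM in wild-type cells (153 reads), a ratio of 1.52 (1.251 to 1.854). The JB1 interval lay above 1 and the E14 interval held 1. The limma estimate was 0.17 ± 0.24 (SE, adjusted p = 0.851).

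**Figure D2:**
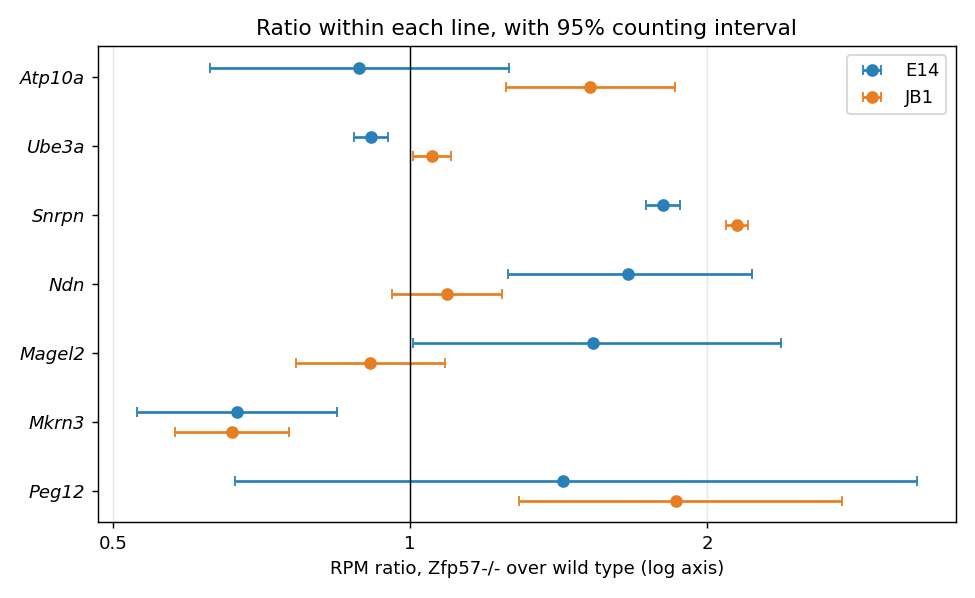
Ratio of RPM, Zfp57-/- over wild type (horizontal log axis), for each gene in E14 (blue) and JB1 (orange), with 95% counting intervals from 1 library per genotype. Snrpn lies above 1 and Mkrn3 below 1 in both lines, while Atp10a, Ube3a and Magel2 lie on opposite sides of 1. The intervals hold 1 for Atp10a and Peg12 in E14 and for Ndn and Magel2 in JB1.

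Set against all genes, 0 of the 6 measured cluster genes were at least 2-fold higher in Zfp57-/- E14, where 0.953% of all measured genes were. In JB1 it was 1 of 7, Snrpn, where 2.50% of all measured genes were. None was at least 2-fold lower, against 0.269% of genes in E14 and 1.58% in JB1. The median difference was 0.09 over the 6 genes in E14, beside 0.02 over all measured genes, and 0.11 over the 7 genes in JB1, beside 0.01. By direction, 3 of 6 were higher in E14, where 53.5% of all measured genes were, and 5 of 7 in JB1, where 51.5% were. Magel2 in E14 and Peg12 in JB1 entered these counts and medians only through the Zfp57-/- library in which they were higher, so nothing is read from them.

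**Figure D3:**
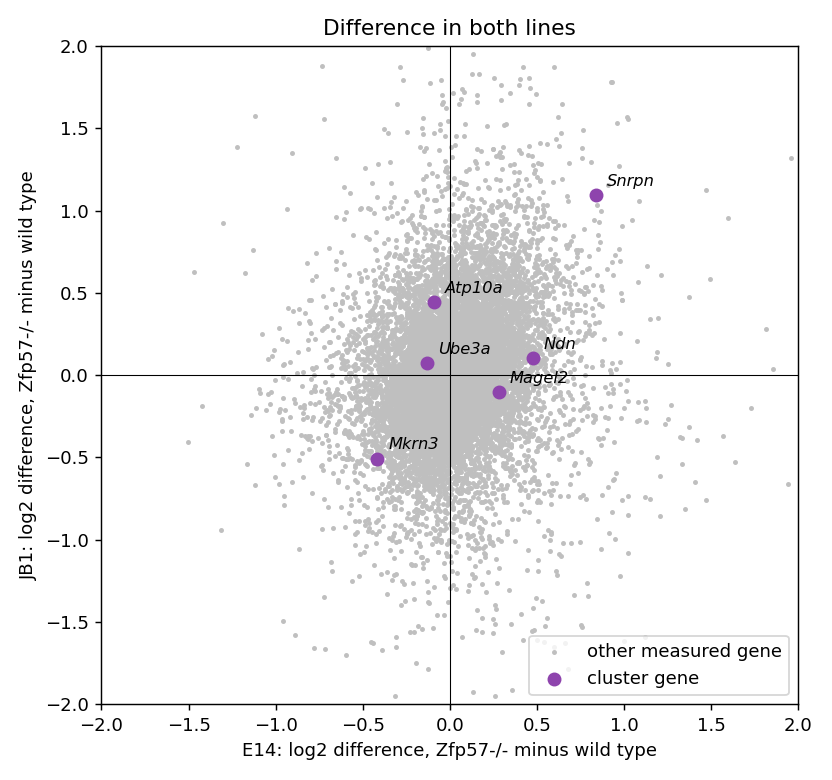
Log2 difference, Zfp57-/- minus wild type, in JB1 (vertical) against E14 (horizontal) for the 11890 genes measured in both lines (grey), with 6 cluster genes in purple. Peg12 was not measured in E14, and 34 genes lie outside the range of 2 that is drawn. Snrpn is at 0.84 in E14 and 1.09 in JB1, at the upper right edge of the cloud, and the other 5 lie inside it.

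By distance, the near genes did not differ in the same way. Snrpn, whose span holds the control region, was higher by 0.84 in E14 and 1.09 in JB1, and Ube3a, which starts 0.801 Mb from the listed Snrpn start, differed by −0.13 and 0.07. The far genes ranged from −0.42 to 0.48 in E14 and from −0.51 to 0.44 in JB1. The median of the near genes was 0.36 in E14 and 0.58 in JB1, and that of the far genes was 0.11 in E14 and 0.10 in JB1. These values were taken without the 1 RPM filter. The E14 median of the far genes is the value of Peg12, which was below that filter, so nothing is read from it. With 2 near and 5 far genes this is a description, and in E14 it turns when near is set at 2 Mb, which adds Atp10a (near minus far −0.29, against 0.25), and with a pseudocount of 0.1 (−0.01). Among the genes with an active paternal copy, Snrpn stood above the median of the 4 far ones, which was 0.19 in E14 and 0.00 in JB1. In E14 that median rests on Peg12, below the filter, and on Magel2, which passed it through the Zfp57-/- library alone.

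Genes flanking the cluster differed less from wild type than Snrpn did, apart from Gabrg3 in JB1. Of 21 symbols on a list of flanking genes 19 were found. Of the 14 measured in E14, 3 were higher and 11 lower in the Zfp57-/- library, with a median of −0.08 and a range of −0.43 to 0.19. Of the 15 measured in JB1, 3 were higher and 12 lower, with a median of −0.11. Over all measured genes of chromosome 7, 535 of 955 were higher in E14 and 551 of 1042 in JB1, with medians of 0.04 and 0.03. Chrna7, a nicotinic receptor subunit and the first listed gene beyond Peg12, was 3.85 RPM in Zfp57-/- and 4.398 RPM in wild-type E14, and 3.76 RPM in Zfp57-/- and 3.89 RPM in wild-type JB1. The 95% interval of its ratio held 1 in both lines.

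The flanking gene beyond 2-fold was Gabrg3, a GABA-A receptor subunit. It passed the 1 RPM filter in JB1 through the wild-type library alone, so nothing is read from its lower value there. It was 0.485 RPM in Zfp57-/- JB1 (47 reads), against 2.20 RPM in wild-type JB1 (152 reads), a ratio of 0.221 (95% interval 0.1556 to 0.3078). In E14 it had 0 reads in Zfp57-/- cells, which allows up to 0.0424 RPM, and 1 read in wild-type cells. Trpm1, a cation channel gene, marked the lower end of the range in E14 at −0.43 and the upper end in JB1 at 0.34.

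**Figure D4:**
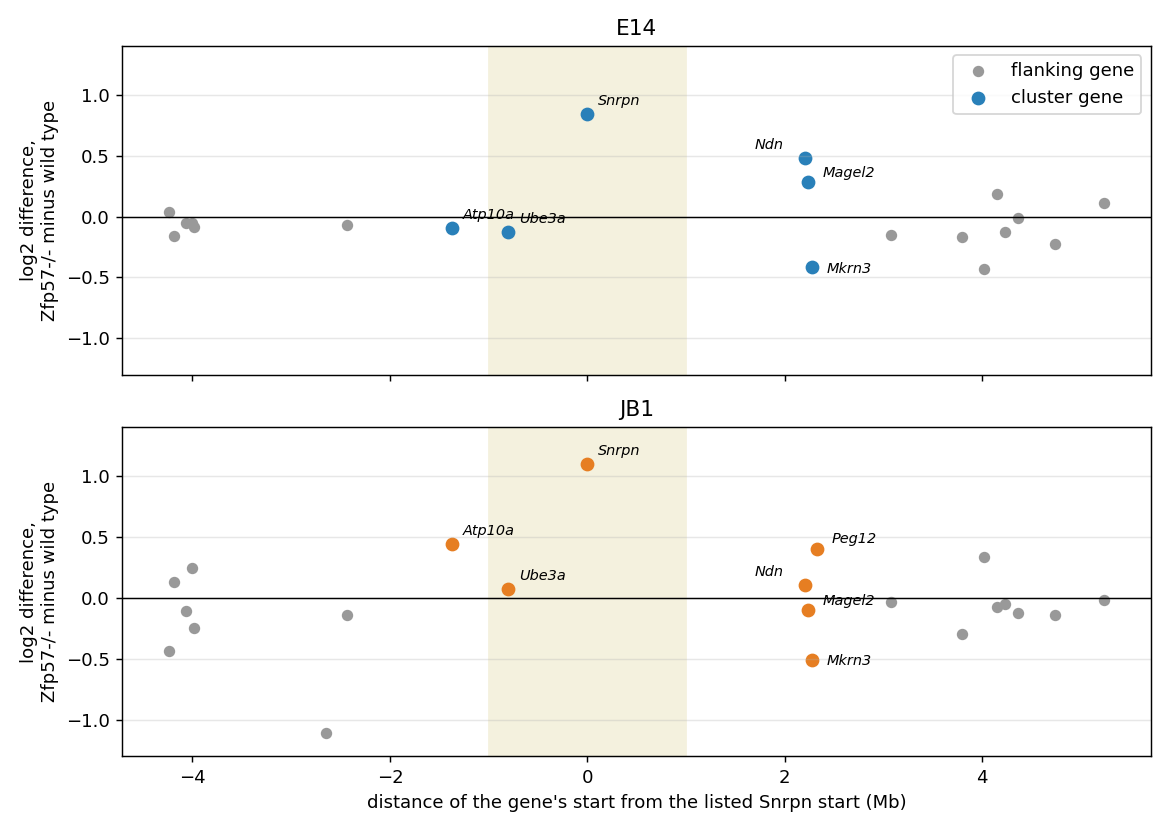
Log2 difference, Zfp57-/- minus wild type (vertical), of cluster genes (coloured) and flanking genes (grey) with at least 1 RPM in either library of E14 (top) or JB1 (bottom), by distance of each gene's start from the listed Snrpn start (horizontal, Mb). The shaded band is the near range of 1 Mb. Snrpn is the highest point in both panels, at 0.84 and 1.09, and Gabrg3 at −1.11 is the lowest in JB1. Gabrg3 is drawn there through its wild-type library alone.

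Of 13 symbols listed for other transcripts of the cluster, 2 were found, A330076H08Rik and A230006K03Rik, and neither reached 1 RPM in any library. The others were not analysed here. A330076H08Rik had 0 reads in both E14 libraries, 7 reads in Zfp57-/- JB1 and 17 reads in wild-type JB1. The 2 rows of A230006K03Rik held at most 6 reads in any library. Snurf had no row of its own, and whether its reads were counted with Snrpn is not known.

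Levels of different genes are comparable only per length, taken here as the exon length of GENCODE M21 in RPM per kilobase. Snrpn came first in every library, at 58.7 in Zfp57-/- and 32.5 in wild-type E14, and at 118 in Zfp57-/- and 55.1 in wild-type JB1. Ube3a followed in E14 at 3.98 in Zfp57-/- and 4.36 in wild-type cells. In JB1 Ube3a was 2.37 in Zfp57-/- and 2.25 in wild-type cells, close to Mkrn3 at 1.73 in Zfp57-/- and 2.63 in wild-type cells, and their order in wild-type JB1 turns with the length of the longest transcript. Ndn was 0.651 in Zfp57-/- and 0.392 in wild-type E14, and 1.71 in Zfp57-/- and 1.57 in wild-type JB1. Magel2 and Atp10a were between 0.145 and 0.733 and changed places between libraries, and Peg12 came last in all 4, at 0.118 in Zfp57-/- and 0.0825 in wild-type E14, and at 0.418 in Zfp57-/- and 0.224 in wild-type JB1. Snrpn came first and Peg12 last with either length.

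The wild-type libraries of the lines differed in the level of Magel2 and Ndn more than Zfp57-/- and wild-type cells did within a line. For Mkrn3 and Peg12 the gap was smaller and depends on the scaling between the tables. Between the wild-type libraries, Magel2 was 3.40 RPM in JB1 and 0.674 RPM in E14, 5.04-fold higher in JB1, and Ndn was 4.01-fold higher. Mkrn3 was 2.19-fold, Peg12 2.72-fold and Snrpn 1.70-fold higher in JB1, and Atp10a was 2.21 RPM in JB1 and 1.23 RPM in E14. Ube3a went the other way, at 46.3 RPM in JB1 and 89.9 RPM in E14, a ratio of 0.516. The tables were scaled separately, and relative to the reads in listed genes these ratios were 3.90 for Magel2, 3.10 for Ndn, 1.70 for Mkrn3, 2.10 for Peg12, 1.39 for Atp10a, 1.31 for Snrpn and 0.399 for Ube3a. The lines also differ in strain, and with 1 library each this difference was not tested.

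Close relatives of the cluster genes outside the cluster showed no common direction. Ndnl2, on chromosome 7, is among them and was also counted as a flanking gene. Of 10 measured relatives, 3 were higher in Zfp57-/- E14 and 6 in Zfp57-/- JB1, beside 53.5% and 51.5% of all measured genes. Their medians were −0.07 and 0.07, and none was beyond 2-fold. Snrpb, whose SmB protein takes the place of SmN in most cells and is nearly identical to it, was 135 RPM in Zfp57-/- and 96.9 RPM in wild-type E14, and 137 RPM in Zfp57-/- and 143 RPM in wild-type JB1. How reads shared by such paralogs were counted is not known from the sources used here. Mkrn1, the founding makorin gene, was 259 RPM in Zfp57-/- and 297 RPM in wild-type E14, and 506 RPM in Zfp57-/- and 320 RPM in wild-type JB1. Mkrn1 and its relative Mkrn2 lie on chromosome 6. The measured genes of that chromosome had a median of −0.28 in E14 (451 of 548 lower in the Zfp57-/- library) and 0.05 in JB1 (258 of 593 lower). The part of this in the values of Mkrn1 and Mkrn2 was not tested.

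The other Sm core proteins, with which SmN assembles on small nuclear RNAs, were mostly higher in the Zfp57-/- libraries, each by less than 2-fold. Of 6 genes, 5 were higher in E14 and 6 in JB1, beside 53.5% and 51.5% of all measured genes. The medians were 0.28 in E14 and 0.42 in JB1, beside 0.02 and 0.01 over all measured genes. Snrpf was 39.9 RPM in Zfp57-/- and 22.8 RPM in wild-type E14, and 93.2 RPM in Zfp57-/- and 71.3 RPM in wild-type JB1. Snrpd2 was 95.1 RPM in Zfp57-/- and 64.0 RPM in wild-type E14, and 90.5 RPM in Zfp57-/- and 64.7 RPM in wild-type JB1. Snrpd3 was 15.1 RPM in Zfp57-/- and 11.4 RPM in wild-type E14, and 141 RPM in Zfp57-/- and 86.3 RPM in wild-type JB1. The limma estimates were 0.58 ± 0.17 for Snrpf, 0.52 ± 0.15 for Snrpd2 and 0.54 ± 0.16 for Snrpd3 (SE), each with an adjusted p of 0.623. Snrpg, on chromosome 6 like Mkrn1, was the exception in E14, at 115 RPM in Zfp57-/- and 126 RPM in wild-type cells.

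Over all 14 measured protein partners of the cluster genes, the Sm genes included, 9 were higher in the Zfp57-/- library of each line, with medians of 0.13 in E14 and 0.06 in JB1. The 9 include the 5 Sm genes higher in E14 and the 6 higher in JB1. Of all measured genes, 53.5% were higher in E14 and 51.5% in JB1, which also stands beside the counts that follow. Of 12 genes that maintain imprints, 5 were higher in E14 and 4 in JB1, with medians of −0.13 and −0.09, and Zfp57 itself was the member beyond 2-fold in both lines.

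The 5 genes nearest to Snrpn in pattern, among 11275 with at least 1 RPM in all 4 libraries, were Snrpa1, Endog, Cyp2s1, Unc5b and Srcrb4d. Likeness was the Euclidean distance over the 4 log2(RPM + 1) values, each gene centred on its own mean, and it ran from 0.168 for Snrpa1 to 0.275 for Srcrb4d. Snrpa1, on chromosome 7 at 73205185 to 73219468, was 46.1 RPM in Zfp57-/- and 28.4 RPM in wild-type E14, and 106 RPM in Zfp57-/- and 50.6 RPM in wild-type JB1. Of the other cluster genes, Magel2 was below this level in wild-type E14, and Peg12 in both E14 libraries and in wild-type JB1. These genes were not compared, and none of the other 4 was among the 5.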

How the data were processed

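Poly(A) RNA libraries (Illumina TruSeq stranded kit, per the labels' protocols) of 2 cell lines and 2 genotypes were analysed, 1 library each, grouped by the sample titles. The submitters' processing notes name TopHat2 2.0.8b, cutadapt, CASAVA 1.8.2 and genome build mm9. Annotation, counting tool, strand setting and scaling total were not given in the sources used here. Values in the deposited tables are log2 RPM. Taking a library's lowest value as 0.9 of a read made 100% of the other values whole reads (relative tolerance 0.0001), and genes at that lowest value were set to 0. The scaling divided by 50478922 to 96996280 reads, and 1 RPM was 50.5 to 97.0 reads. A count of 0 was read as up to 3 reads.

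Differences were log2((Zfp57-/- RPM + 1)/(wild-type RPM + 1)), which understates changes of genes near 1 RPM. Ratios are of RPM, with exact conditional binomial (Clopper-Pearson) 95% intervals on recovered reads, which cover counting error only. For the shared effect limma 3.58.1 under R 4.3.3 was used (eBayes with trend, mean of at least 1 RPM, Benjamini-Hochberg, adjusted p under 0.05), after a check on simulated data. The cell line pairs the samples and is a term of the fit. The prior had 5.28 degrees of freedom. A count model had been foreseen for count tables only and was not run. The members and gene lists were chosen with earlier results of these data known. The named genes are the 7 members, Zfp57, genes of the lists, and the 5 nearest to Snrpn in pattern. Promoters were searched with Biopython 1.88. GRCm38 annotation was used for promoters and exon lengths, mm9 for all other positions.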

Additional observations from a re-analysis of the deposited data

Results flagged for a closer look

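Atp10a, Ube3a and Magel2 went opposite ways in the lines, and the difference between the lines was not tested. The JB1 difference minus the E14 difference was 0.53 for Atp10a, 0.20 for Ube3a and −0.38 for Magel2 on the log2 scale. Magel2 passed the 1 RPM filter in E14 through the Zfp57-/- library alone, so nothing is read from its value. Among the other genes named, Trpm1 (0.77), Snrpb (−0.53), Mkrn1 (0.86) and Snrpg (0.60) went opposite ways too, also untested.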

How the results depend on the processing

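In limma, 0 genes passed an adjusted p of 0.05 in all 9 settings tried (pseudocounts, filters, scalings, voom on recovered reads, and no cell line term), with 16 to 1688 genes at an unadjusted p under 0.05. The estimate of Snrpn ranged from 0.91 to 0.98, with an adjusted p of 0.494 to 1.000. Without the cell line as replicate block its unadjusted limma p was 0.0917 and 16 genes had an unadjusted p under 0.05. Mkrn3 ranged from −0.60 to −0.25. All 56 values of the 7 genes within a line kept their sign under other pseudocounts and scalings. A pseudocount cannot change a sign, so only the values under other scalings could have turned. The 2-fold counts moved with the pseudocount: at 0.1, 268 genes were higher and 77 lower in Zfp57-/- E14 and 656 higher and 360 lower in Zfp57-/- JB1, and at 5 the counts were 44 and 6, and 111 and 83. With median-ratio scaling 50 genes were lower in Zfp57-/- E14, and higher calls made up 68.2% of E14 calls, against 78.0% without that scaling. In JB1 that scaling gave 274 higher and 246 lower genes, 52.7% of calls higher, against 328 and 208 (61.2%) without it. The near minus far median in E14 was −0.29 with near at 2 Mb, and in JB1 it was 1.09 over genes with an active paternal copy only, an alternative chosen after seeing the data. Leaving out a replicate was not possible with 1 library per group. Depth limits Peg12 and Magel2 in E14, with 11 to 73 reads each.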
